A study of Arabidopsis thaliana with 2 samples.

Results

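Expansins and xyloglucan endotransglucosylases/hydrolases (XTHs) are 2 families of wall proteins that act while plant cells enlarge. They were compared in tissue labelled as shoot from the Arabidopsis thaliana whitening mutant wn1 and from wild type, both in the Col-0 background. The members were the protein-coding genes whose description in the deposited gene table holds the word expansin, or the words xyloglucan endotransglucosylase or xyloglucan endotransglycosylase. This gave 34 expansin genes and 30 XTH genes, 64 of the 33565 genes listed. Both genotypes were grown on solid half-strength medium for 7 days at 22 °C in cycles of 16 h light and 8 h dark, and the tissue is labelled shoot and cotyledon. The labels do not name the gene mutated in wn1, so its transcript could not serve as a check of the genotype. There was 1 RNA sequencing library per genotype, with no replicates, so no test was possible, no p-value is given, and whether a difference exceeds the spread between plants is not known.

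Expansins loosen the plant cell wall without cutting its polymers, and they work best in an acidic wall, which plasma membrane proton pumps provide. The family has alpha-expansins (EXPA), beta-expansins (EXPB) and the expansin-like groups EXLA and EXLB. XTHs cut xyloglucan, the main hemicellulose that ties to cellulose in the walls of dicot plants, and join the cut end to another xyloglucan chain or, in a few members, to water. In seedlings many members of both families are used in particular cells, such as root hairs, guard cells, the vascular tissue or the endosperm, and many respond to light, brassinosteroid, auxin or touch.

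Values are FPKM (fragments per kilobase of transcript, relative to all mapped fragments), a scale on which different genes can be compared. Differences are log2 differences of FPKM + 1, wn1 minus wild type, and a gene was counted when it passed 2-fold on that scale. A gene was counted as measured when its mean FPKM over both libraries was at least 1. Fold values are plain ratios of FPKM. Their 95% intervals come from fragment numbers estimated from FPKM, transcript length and an estimated depth of 15650000 fragments for wn1 and 12700000 for wild type. They cover counting error only and say nothing of the variation between plants.

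In the wn1 library the most abundant member of each family had higher FPKM than in wild type, EXPA1 by 3.40-fold and XTH4 by 2.44-fold. Most other members were lower or close to wild type. Of the 23 measured expansins, 1 was at least 2-fold higher and 5 were at least 2-fold lower. Of the 24 measured XTHs, 1 was at least 2-fold higher and none was at least 2-fold lower. Among all 18788 measured genes, 3.67% were at least 2-fold higher, 3.65% were at least 2-fold lower and 7.32% were either. The shares were 4.35% higher and 21.7% lower for measured expansins and 4.17% higher for measured XTHs. The share of expansins at least 2-fold lower thus stood above that of all genes, and the other shares stood near or below theirs. The median log2 difference was -0.37 for measured expansins and -0.17 for measured XTHs, against 0.03 for all measured genes. Below 0 lay 15 of the 23 measured expansins and 15 of the 24 measured XTHs, against 47.1% of all measured genes. A filter on the mean lets in genes that are abundant in 1 library only, so these counts describe the measured genes and not the families as a whole.

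**Figure D1:**
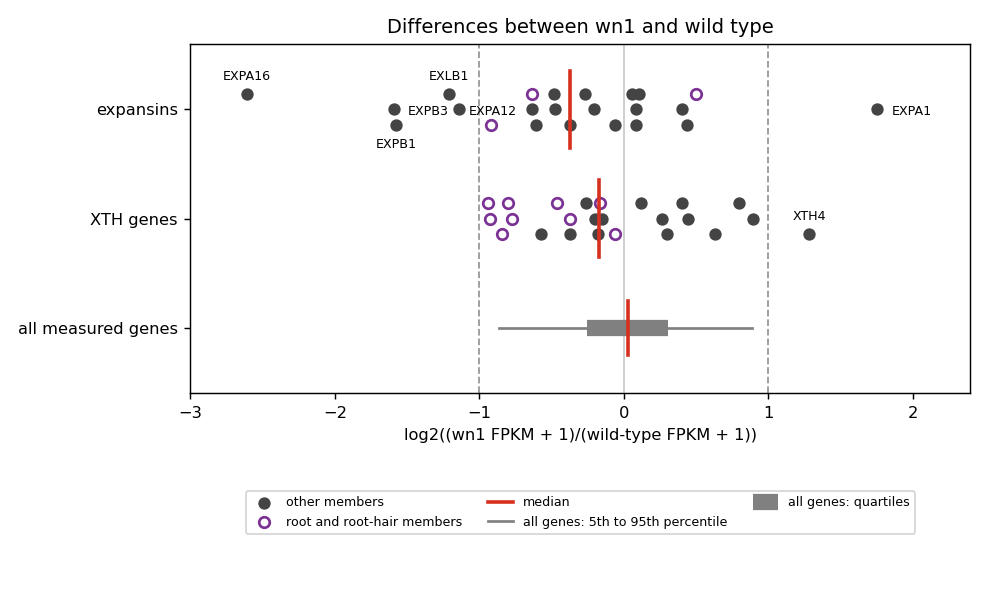
Log2 difference of FPKM + 1 (wn1 over wild type) for each measured expansin and XTH gene, 1 point per gene, with the quartiles and the 5th to 95th percentile of all measured genes. Open circles are members known from roots or root hairs, dashed lines mark 2-fold, red lines are medians of -0.37 (expansins), -0.17 (XTHs) and 0.03 (all genes), and named points are at least 2-fold different.

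The shoot label was checked against markers of several cell types. All 4 markers of leaf mesophyll were abundant and lay within 2-fold, in both directions. RBCS1A, the small subunit of Rubisco, had 13647 FPKM in wn1 and 19784 FPKM in wild type, and the antenna gene LHCB1.3 had 13745 FPKM in wn1 and 11554 FPKM in wild type. CA1, a carbonic anhydrase, had 2806 FPKM in wn1 and 5603 FPKM in wild type, and LHCB2.1 had 1791 FPKM in wn1 and 2596 FPKM in wild type. The seed markers were the marker list with every member past 2-fold. CRA1, CRC and OLEO1 summed to 13.7 FPKM in wn1 and 81.0 FPKM in wild type, with a median log2 difference of -2.30, and CRC had 1.60 FPKM in wn1 and 24.3 FPKM in wild type. Markers of roots were also present, in both libraries, which a label of shoot and cotyledon alone does not account for. The root-hair wall protein gene PRP3 had 146 FPKM in wn1 and 279 FPKM in wild type, and the endodermis marker CASP1 had 20.6 FPKM in wn1 and 25.1 FPKM in wild type. PLT1 and PLT2, which mark the root stem cell niche, stayed under 1 FPKM in both. The pollen markers VGD1 and VGDH1 were listed at 0 in both libraries. The libraries can thus not be taken as free of root tissue, and the amount of it in each was not tested. Less RNA from a cell type and fewer cells of that type cannot be told apart in such libraries of mixed cell types.

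The scale between the libraries matters for every direction given here. After centring on the median of all genes, or rescaling over nuclear protein-coding genes, none of the 47 measured members changed sign. Dividing each column by its own sum moved the median of all genes to -0.86 and left 2 of the 47 members above 0, against 17 as deposited. Of all genes at least 2-fold different, 1.42% were then higher, against 50.2% as deposited. In wn1, 54.1% of that sum is 1 plastid transfer RNA row, ATCG00010, listed at 0 in wild type. EXPA1 and XTH4 were the members left above 0, at 0.75 and 0.28. Less the shifted median of all genes, they stood at 1.61 and 1.14 and the family medians at -0.46 for expansins and -0.28 for XTHs, and 44 of the 47 members stayed on the same side of that median. Values below are as deposited.

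To show the regulatory DNA of the genes the comparison turns on, the 250 bases before the annotated gene start are given below, read 5′ to 3′ on the strand of the gene from the RefSeq genome TAIR10.1. EXPA1 and XTH4 had the largest log2 difference of their families, and EXPA16 and XTH13 the smallest, among members with a mean of at least 5 FPKM. EXPA7 and EXPA18 are both root-hair expansins and were added after the values were seen. Capitals mark matches, on either strand, to any of 5 hexamers: CACGTG (the G-box bound by light-signalling bHLH and bZIP factors), CATGTG (a related E-box), CGTGTG and CGTGCG (elements bound by the brassinosteroid factor BZR1) and TGTCTC (an auxin response element).
EXPA1, chr1:26141476-26141725, plus strand: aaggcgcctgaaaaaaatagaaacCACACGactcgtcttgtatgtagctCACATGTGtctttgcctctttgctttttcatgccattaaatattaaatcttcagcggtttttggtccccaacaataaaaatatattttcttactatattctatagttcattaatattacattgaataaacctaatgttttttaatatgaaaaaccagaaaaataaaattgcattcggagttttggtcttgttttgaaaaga
EXPA16, chr3:20576250-20576499, minus strand: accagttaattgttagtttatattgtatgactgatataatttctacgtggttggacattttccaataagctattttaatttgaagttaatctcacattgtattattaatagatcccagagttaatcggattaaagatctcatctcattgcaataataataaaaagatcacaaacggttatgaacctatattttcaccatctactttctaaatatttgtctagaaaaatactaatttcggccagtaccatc
EXPA7, chr1:4276255-4276504, plus strand: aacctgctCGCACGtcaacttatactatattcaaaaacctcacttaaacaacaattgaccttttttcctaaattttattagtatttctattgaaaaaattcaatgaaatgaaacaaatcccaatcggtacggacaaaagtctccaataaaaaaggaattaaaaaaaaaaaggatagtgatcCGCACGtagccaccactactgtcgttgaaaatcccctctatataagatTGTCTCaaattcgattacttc
EXPA18, chr1:23331313-23331562, plus strand: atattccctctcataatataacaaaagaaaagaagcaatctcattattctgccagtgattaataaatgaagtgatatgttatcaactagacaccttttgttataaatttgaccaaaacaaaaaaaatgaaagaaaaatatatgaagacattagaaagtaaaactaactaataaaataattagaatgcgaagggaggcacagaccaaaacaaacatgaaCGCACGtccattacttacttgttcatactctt
XTH4, chr2:2763199-2763448, plus strand: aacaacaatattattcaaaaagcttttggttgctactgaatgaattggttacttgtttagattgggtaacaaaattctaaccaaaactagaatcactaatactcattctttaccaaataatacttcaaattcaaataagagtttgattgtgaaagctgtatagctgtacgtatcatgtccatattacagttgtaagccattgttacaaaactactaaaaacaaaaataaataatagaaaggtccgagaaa
XTH13, chr5:23304096-23304345, minus strand: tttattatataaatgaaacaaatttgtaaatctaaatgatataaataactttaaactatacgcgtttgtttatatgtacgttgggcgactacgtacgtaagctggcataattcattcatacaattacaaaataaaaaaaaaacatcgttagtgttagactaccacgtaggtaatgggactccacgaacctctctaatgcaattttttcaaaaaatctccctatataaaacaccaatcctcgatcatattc

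The EXPA1 window held 3 matches, 1 of CGTGTG starting 226 bases before the gene start and 2 overlapping matches of CATGTG starting 201 and 199 bases before it. The EXPA7 window held CGTGCG starting 242 and 69 bases before the start and TGTCTC 21 bases before it, and the EXPA18 window held CGTGCG 32 bases before the start. The windows of EXPA16, XTH4 and XTH13 held none of these letters, which says nothing of other sites or of factors.

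Across the measured members the counts of windows with a hexamer were small. TGTCTC over both families and CATGTG in XTHs stood near their shares of measured genes. CACGTG was in none of the 23 expansin windows and none of the 24 XTH windows, and in 7.88% of the 18273 windows of measured genes. CGTGTG was in 4 expansin windows (EXPA1, EXPA6, EXLA2 and EXPA2) and 2 XTH windows (XTH8 and XTR6), against 5.74% of measured genes. Of these 6 genes 5 lay above 0, XTR6 being the exception, against 50.8% of the 1048 measured genes with that hexamer. The counting intervals of the ratio held 1 for EXLA2 (0.896 to 1.27) and EXPA2 (0.990 to 1.97). CGTGCG was in the windows of EXPA7, EXPA18 and EXPB3, none in XTHs, against 1.70% of measured genes. All 3 lay below 0, and 51.9% of the 310 measured genes with it lay above 0. CATGTG was in 7 expansin and 3 XTH windows, against 11.3%, and 3 of these 10 genes lay above 0 and 7 below. TGTCTC was in 4 expansin windows and 1 XTH window, against 10.7%, and 3 of the 5 lay above 0 and 2 below. With so few genes per hexamer, the splits by sign are given as a description. Such matches describe the letters in these windows and are not evidence of binding.

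EXPA1 (AT1G69530), an alpha-expansin known for its role in guard cells and widely used in shoots, was the most abundant expansin in both libraries. It had 320 FPKM in wn1 and 94.0 FPKM in wild type, a fold of 3.40 (interval 3.23 to 3.58) and a log2 difference of 1.75, higher than 99.4% of all measured genes. The guard cell markers MYB60, FAMA, SPCH and EPF1 summed to 42.0 FPKM in wn1 and 35.4 FPKM in wild type, with 3 of the 4 above 0 and all 4 within 2-fold. Their part in the EXPA1 value was not tested. EXPA1 made up 42.5% of the summed expansin FPKM in wn1 and 13.0% in wild type.

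The sum of all expansins was close in the libraries, at 753 FPKM in wn1 and 720.5 FPKM in wild type. Without EXPA1 it was 433 FPKM in wn1 and 626 FPKM in wild type. The near-equal totals thus held differences in opposite directions, with EXPA1 higher and the other listed expansins together at 0.691 of the wild-type sum. EXPA1 had the largest difference above 0, so the lower remainder follows in part from leaving it out. EXP3, an expansin outside the description rule, is not in these sums. It had 44.7 FPKM in wn1 and 21.6 FPKM in wild type. In wn1, 13 expansins reached 10 FPKM, against 19 in wild type. These counts depend on the cutoff, and the same count was not made for all genes. EXPB1, EXLB1, EXPA14 and EXPA13 lay just under it in wn1, at 9.97, 9.96, 9.56 and 8.84 FPKM. EXLA1 and EXPA16 lay further below it in wn1, at 6.10 and 5.31 FPKM. With a cutoff of 1 FPKM the counts were 22 in wn1 and 24 in wild type.

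**Figure D2:**
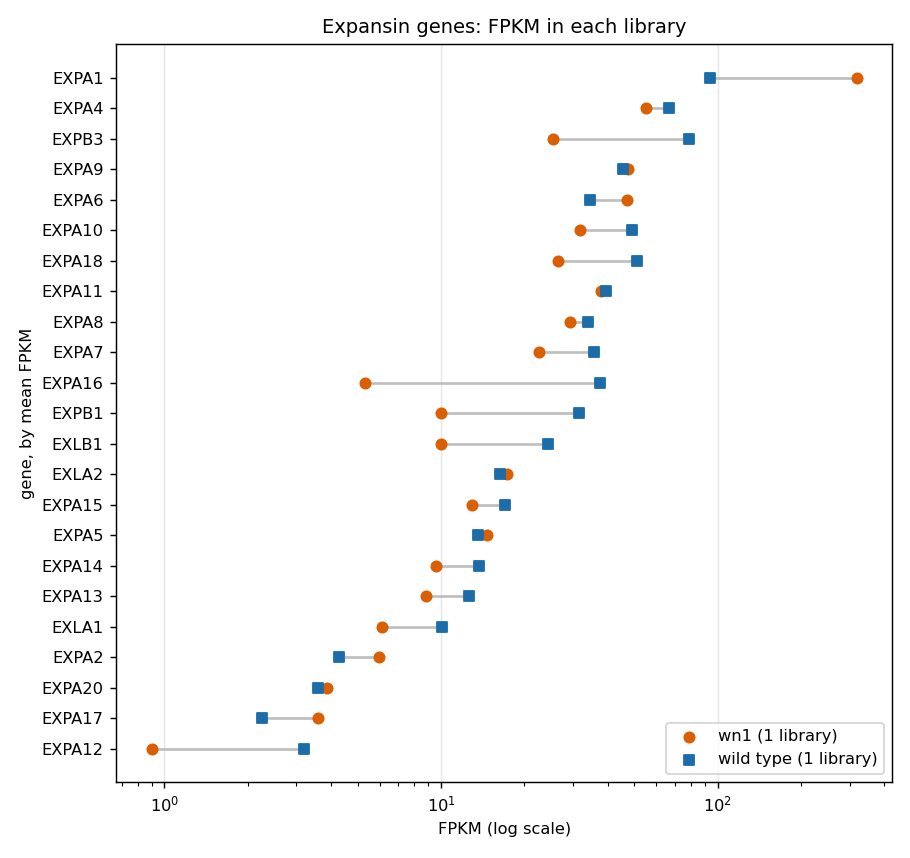
FPKM of the 23 measured expansin genes in wn1 (circles) and wild type (squares), 1 library each, on a log axis, with genes ordered by mean FPKM. EXPA1 stands at 320 FPKM in wn1 and 94.0 FPKM in wild type, and EXPA16, EXPB3, EXPB1, EXLB1 and EXPA12 lie far to the left in wn1.

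Among the expansins at least 2-fold lower, EXPA16 (AT3G55500) differed most, with 5.31 FPKM in wn1 and 37.5 FPKM in wild type. It was 7.07-fold lower (interval 5.73 to 8.78), a log2 difference of -2.61, and 0.319% of all measured genes had a smaller one. It ranked 8 among expansins in wild type and 20 in wn1. Its closest relative by coding sequence, EXPA4 (AT2G39700), 80.2% identical, had 54.9 FPKM in wn1 and 66.5 FPKM in wild type, a log2 difference of -0.27. The members of this closely related pair thus differed, as did EXPA1 and its own closest relative EXPA10, at 78.6% identity. EXPA10 (AT1G26770), which promotes leaf growth, had 31.7 FPKM in wn1 and 49.0 FPKM in wild type, a log2 difference of -0.61.

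Both measured beta-expansins were lower in wn1. EXPB3 (AT4G28250) had 25.5 FPKM in wn1 and 78.7 FPKM in wild type, 3.09-fold lower (interval 2.83 to 3.37), and it ranked 2 among expansins in wild type and 9 in wn1. EXPB1 (AT2G20750) had 9.97 FPKM in wn1 and 31.7 FPKM in wild type, 3.18-fold lower (interval 2.73 to 3.71). Their log2 differences of -1.59 and -1.57 were nearly equal although their coding sequences were only 60.6% identical. The other 4 beta-expansins, EXPB2, EXPB4, EXPB5 and EXPB6, were listed at 0 in both libraries. EXLB1 (AT4G17030), of the expansin-like B group, had 9.96 FPKM in wn1 and 24.4 FPKM in wild type, 2.45-fold lower (interval 2.04 to 2.96). The remaining member at least 2-fold lower was EXPA12 (AT3G15370), at 0.900 FPKM in wn1 and 3.19 FPKM in wild type, which rests on an estimated 16 fragments in wn1 and 46 in wild type and passed the filter through wild type alone.

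The other abundant alpha-expansins lay within 2-fold. EXPA6 (AT2G28950) had 46.9 FPKM in wn1 and 34.5 FPKM in wild type, and EXPA9 (AT5G02260) had 47.4 FPKM in wn1 and 45.5 FPKM in wild type. EXPA11 (AT1G20190) had 38.0 FPKM in wn1 and 39.7 FPKM in wild type, and EXPA8 (AT2G40610) had 29.3 FPKM in wn1 and 33.9 FPKM in wild type. The counting intervals of the ratio held 1 for EXPA9 (0.949 to 1.15) and EXPA11 (0.864 to 1.07). Of the less abundant members, EXPA2, used in the seed endosperm during germination, had 5.98 FPKM in wn1 and 4.28 FPKM in wild type, with an interval of the ratio from 0.990 to 1.97. EXPA5, EXPA13, EXPA14, EXPA15, EXPA20, EXLA1 and EXLA2 had log2 differences between -0.64 and 0.11.

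The 11 other expansins were not measured. EXLA3 had 0.764 FPKM in wn1 and 1.18 FPKM in wild type, EXPA21 was listed at 0 in wn1 and at 0.182 FPKM in wild type, and 9 were listed at 0 in both. EXPA21 to EXPA25 and EXP26 form a run of 6 neighbouring genes, AT5G39260 to AT5G39310. Within it EXPA22 and EXP26 are 97.7% identical in coding sequence and EXPA23 and EXPA25 97.1%, so reads from either could be divided between them or dropped, and a listed 0 does not show that they were silent.

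XTH4 (AT2G06850), also known as EXGT-A1, is expressed in elongating and vascular tissue. It had the highest FPKM of the XTHs in both libraries, 430 FPKM in wn1 and 176 FPKM in wild type. The fold was 2.44 (interval 2.35 to 2.54) and the log2 difference 1.28, higher than 98.3% of all measured genes. The xylem markers CESA4, CESA7, CESA8 and VND7 summed to 22.4 FPKM in wn1 and 28.0 FPKM in wild type, and all 4 lay below 0 and within 2-fold. The part of vascular tissue in the XTH4 value was not tested. XTH4 made up 37.5% of the summed XTH FPKM in wn1 and 17.2% in wild type. That sum was 1147 FPKM in wn1 and 1024 FPKM in wild type, and without XTH4 it was 717 FPKM in wn1 and 848 FPKM in wild type. XTH4 had the largest difference above 0, so this lower remainder also follows in part from leaving it out.

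**Figure D3:**
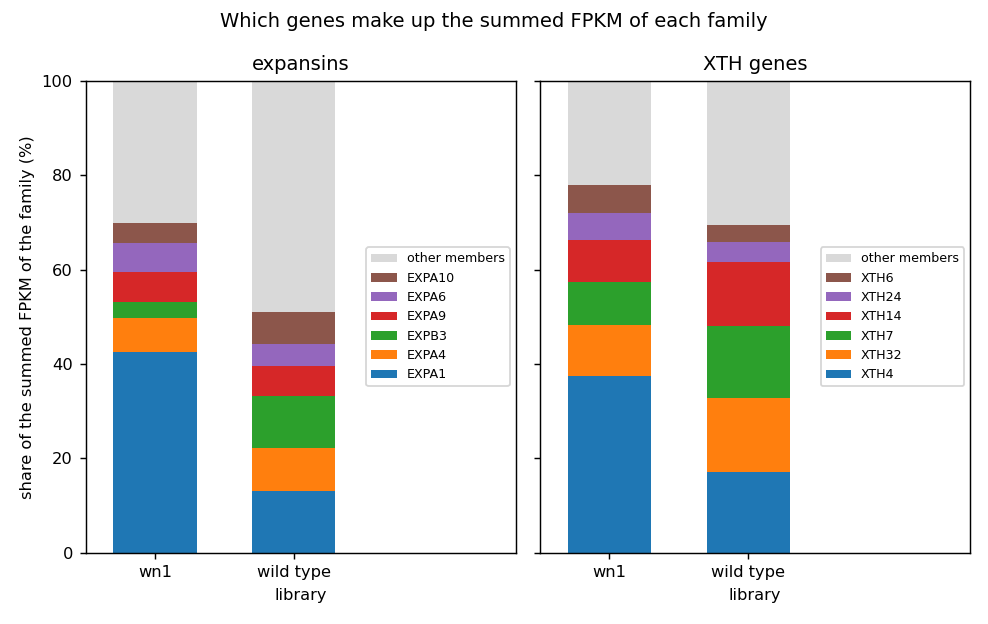
Share of the summed FPKM of each family held by its 6 members of highest mean FPKM and by all others, in wn1 and wild type (1 library each). EXPA1 takes 42.5% of the expansin sum in wn1 and 13.0% in wild type, and XTH4 takes 37.5% of the XTH sum in wn1 and 17.2% in wild type.

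The next XTHs in abundance kept their order in both libraries, with ranks 2, 3 and 4. XTH32 (AT2G36870), of the clade that includes hydrolases, had 124 FPKM in wn1 and 160.4 FPKM in wild type, a log2 difference of -0.37. XTH7 (AT4G37800) had 104 FPKM in wn1 and 156 FPKM in wild type, a log2 difference of -0.57. XTH14 (AT4G25820), best known from roots, had 101 FPKM in wn1 and 140.2 FPKM in wild type, a log2 difference of -0.46. All 3 lay within 2-fold, on the side opposite to XTH4.

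A further 8 measured XTHs lay above 0 and within 2-fold. XTH6 (AT5G65730) had 69.9 FPKM in wn1 and 37.1 FPKM in wild type, a fold of 1.88 (interval 1.72 to 2.06) and a log2 difference of 0.90. XTH24 (AT4G30270), also called MERI5, had 65.7 FPKM in wn1 and 42.0 FPKM in wild type, and XTH8 (AT1G11545) had 20.0 FPKM in wn1 and 11.0 FPKM in wild type. XTH9 and XTH16 had log2 differences of 0.41 and 0.45, and XTH15, XTH11 and XTH28 had 0.30, 0.26 and 0.12. The counting intervals of the ratio held 1 for XTH15 (0.942 to 1.71), XTH11 (0.828 to 1.98) and XTH28 (0.931 to 1.29). XTH7, the closest relative of XTH6 at 72.3% coding identity, lay on the other side of 0. The touch-induced TCH4 (AT5G57560), which is XTH22, had 18.9 FPKM in wn1 and 21.5 FPKM in wild type, with an interval of the ratio from 0.768 to 1.00.

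**Figure D4:**
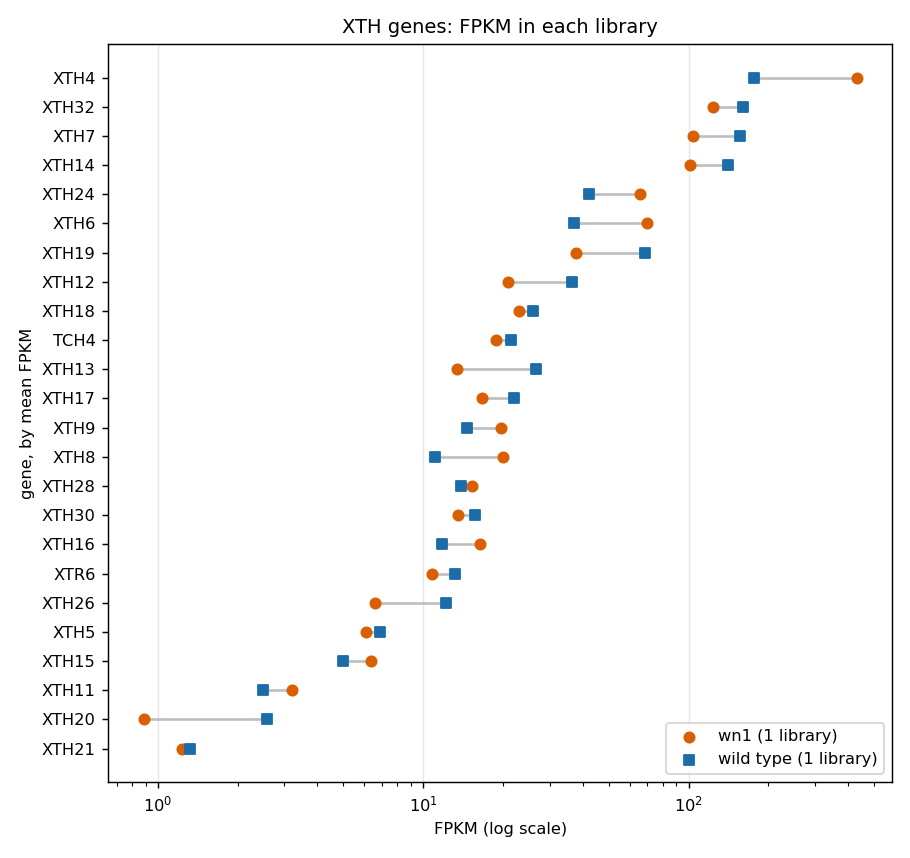
FPKM of the 24 measured XTH genes in wn1 (circles) and wild type (squares), 1 library each, on a log axis, with genes ordered by mean FPKM. XTH4 lies at 430 FPKM in wn1 and 176 FPKM in wild type, XTH6, XTH24 and XTH8 are also to the right in wn1, and XTH19, XTH12, XTH13 and XTH26 are to the left.

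XTHs known mainly from roots were all on the lower side in wn1. The 9 such members, XTH12, XTH13, XTH14, XTH17, XTH18, XTH19, XTH20, XTH21 and XTH26, all had log2 differences below 0, from -0.94 to -0.06 with a median of -0.78, and all lay within 2-fold on the FPKM + 1 scale. As a plain ratio XTH20 (AT5G48070) passed 2-fold, with 0.887 FPKM in wn1 and 2.59 FPKM in wild type, 2.92-fold lower (interval 1.64 to 5.06). It rests on an estimated 20 fragments in wn1 and 46 in wild type and passed the filter through wild type alone. This grouping was made after the values were seen. Closest to the 2-fold limit was XTH13 (AT5G57540), at 13.4 FPKM in wn1 and 26.7 FPKM in wild type, a log2 difference of -0.94. XTH19 (AT4G30290) had 37.8 FPKM in wn1 and 68.5 FPKM in wild type, and XTH12 (AT5G57530) had 20.8 FPKM in wn1 and 36.4 FPKM in wild type. XTH18 (AT4G30280) had 23.0 FPKM in wn1 and 25.9 FPKM in wild type, with an interval of the ratio from 0.777 to 1.02. XTH21 had 1.24 FPKM in wn1 and 1.33 FPKM in wild type, with an interval from 0.490 to 1.79. Both intervals held 1, so the side of these members is uncertain from counting error alone. The 15 other measured XTHs had a median of 0.26, with 9 above 0 and 6 below. The change of sign from the median of -0.17 for all measured XTHs follows from leaving out 9 members all below 0. It is no separate result.

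Both root-hair expansins lay below 0 and within 2-fold. EXPA7 (AT1G12560) had 22.7 FPKM in wn1 and 35.9 FPKM in wild type, a log2 difference of -0.64, and EXPA18 (AT1G62980) had 26.6 FPKM in wn1 and 51.3 FPKM in wild type, a log2 difference of -0.92. EXPA17, used where lateral roots emerge, went the other way with 3.59 FPKM in wn1 and 2.25 FPKM in wild type. Without these 3 genes the expansin median was -0.32, and none of the 5 expansins at least 2-fold lower was among them. The 5 root-hair markers RHD6, RSL4, COBL9, LRX1 and PRP3 were all below 0, from -0.93 to -0.21. They summed to 192 FPKM in wn1 and 354 FPKM in wild type. Of the root tip and endodermis markers, SCR and SHR had log2 differences of 0.35 and 0.31 and CASP1 had -0.27. All 5 listed summed to 64.2 FPKM in wn1 and 59.4 FPKM in wild type. The part of root or root-hair tissue in these values was not tested.

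Neighbouring XTH genes differed from each other within a cluster. XTH24, XTH18 and XTH19 lie side by side (AT4G30270 to AT4G30290) and had log2 differences of 0.63, -0.16 and -0.84. XTH12, XTH13, XTH25 and TCH4 lie side by side as well (AT5G57530 to AT5G57560). XTH12 and XTH13 had -0.78 and -0.94, TCH4 had -0.18, and XTH25 was under the filter with 0.318 FPKM in wn1 and 0.0774 FPKM in wild type. XTH12 and XTH13 are 89.4% identical in coding sequence and XTH18 and XTH19 87.6%, so how their reads were divided is uncertain. Of the other XTHs under the filter, XTH10 had 0.792 FPKM in wn1 and 1.03 FPKM in wild type, XTH3 and XTH29 were listed at 0 in wn1 and at 0.149 and 0.0734 FPKM in wild type, and XTH1 and XTH2 were listed at 0 in both.

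Some relatives are not caught by the description rule. EXP3 (AT2G37640), which RefSeq names expansin A3, had 44.7 FPKM in wn1 and 21.6 FPKM in wild type, a log2 difference of 1.01 and thus just past 2-fold. EXGT-A3 (AT2G01850), which is XTH27, had 120.2 FPKM in wn1 and 116 FPKM in wild type. XTR8 (AT3G44990), which is XTH31, had 62.9 FPKM in wn1 and 72.6 FPKM in wild type, and XTH33 (AT1G10550) had 3.71 FPKM in wn1 and 3.06 FPKM in wild type. EXLB2 (AT4G30380) was listed at 0 in both. With them the medians were -0.32 for expansins and -0.16 for XTHs. The counts, shares, sums and ranks given above for the 2 families leave these relatives out.

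Genes that make and trim xyloglucan, the substrate of XTHs, lay within 2-fold. The 12 synthesis genes had a median of -0.14, with 5 above 0 and 7 below. Among them XLT2, a xyloglucan galactosyltransferase, had 24.9 FPKM in wn1 and 47.4 FPKM in wild type, and CSLC4, which makes the glucan backbone, had 7.67 FPKM in wn1 and 12.8 FPKM in wild type. Of the 4 trimming genes the beta-galactosidase BGAL10 had 13.8 FPKM in wn1 and 7.25 FPKM in wild type, and the alpha-xylosidase XYL1 had 60.2 FPKM in wn1 and 86.7 FPKM in wild type.

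All 9 measured genes of primary wall cellulose synthesis lay within 2-fold, with a median of -0.11. CTL1, a chitinase-like protein needed for cellulose assembly, had 354 FPKM in wn1 and 386 FPKM in wild type. The 8 measured plasma membrane proton pumps lay within 2-fold in both directions, with 4 above 0, 4 below and a median of 0.01. AHA1, the most abundant, had 259 FPKM in wn1 and 238 FPKM in wild type. AHA3 had 32.1 FPKM in wn1 and 60.4 FPKM in wild type, and AHA7 had 11.6 FPKM in wn1 and 21.4 FPKM in wild type. AHA8 went the other way, with 5.27 FPKM in wn1 and 2.63 FPKM in wild type, about 2-fold as a plain ratio. The wall-sensing receptor kinases FER, THE1 and HERK1 had log2 differences of 0.13, 0.18 and 0.22.

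Brassinosteroid genes differed in both directions, with 3 of 15 at least 2-fold higher, 1 at least 2-fold lower and a median of -0.26, against 3.67% higher and 3.65% lower among all measured genes. BEE1, a bHLH factor induced by the hormone, had 10.8 FPKM in wn1 and 3.02 FPKM in wild type. BEE3 and PRE1 of the same list went the other way, with log2 differences of -0.71 and -0.64. The synthesis genes BR6OX2 and ROT3, named after their values were seen, had log2 differences of 1.09 and 1.07. The synthesis genes CPD, DET2 and DWF4 lay within 2-fold on both sides of 0, at 0.65, -0.42 and -0.26. BAS1, which inactivates brassinosteroids, had 2.26 FPKM in wn1 and 9.45 FPKM in wild type, a log2 difference of -1.68. The response factor BES1 had 107 FPKM in wn1 and 172 FPKM in wild type.

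Most genes described as extensins or arabinogalactan proteins lay within 2-fold, and more lay below 0 than above. The extensin list goes by the words of the descriptions and also holds genes of other kinds, such as the receptor kinase genes PERK1 and PERK10. Its shares are thus not those of extensin wall proteins alone. Of the 41 measured genes described as extensin, 10 were at least 2-fold lower, 1 was at least 2-fold higher and 30 lay within 2-fold, with a median of -0.45. These are shares of 24.4% lower and 2.44% higher, against 3.65% and 3.67% of all measured genes. The root-hair markers, which summed to 192 FPKM in wn1 and 354 FPKM in wild type, lay on the same side, and 1 of them, LRX1, is also on the extensin list. Their part was not tested. EXT3 had 792 FPKM in wn1 and 1375 FPKM in wild type, and AT2G24980, of the proline-rich extensin-like family, had 101 FPKM in wn1 and 262 FPKM in wild type. Of the 40 measured arabinogalactan protein genes, 6 were at least 2-fold lower (15.0%), none was at least 2-fold higher and 34 lay within 2-fold, with a median of -0.36. FLA16, a fasciclin-like member, had 16.8 FPKM in wn1 and 56.4 FPKM in wild type.

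**Figure D5:**
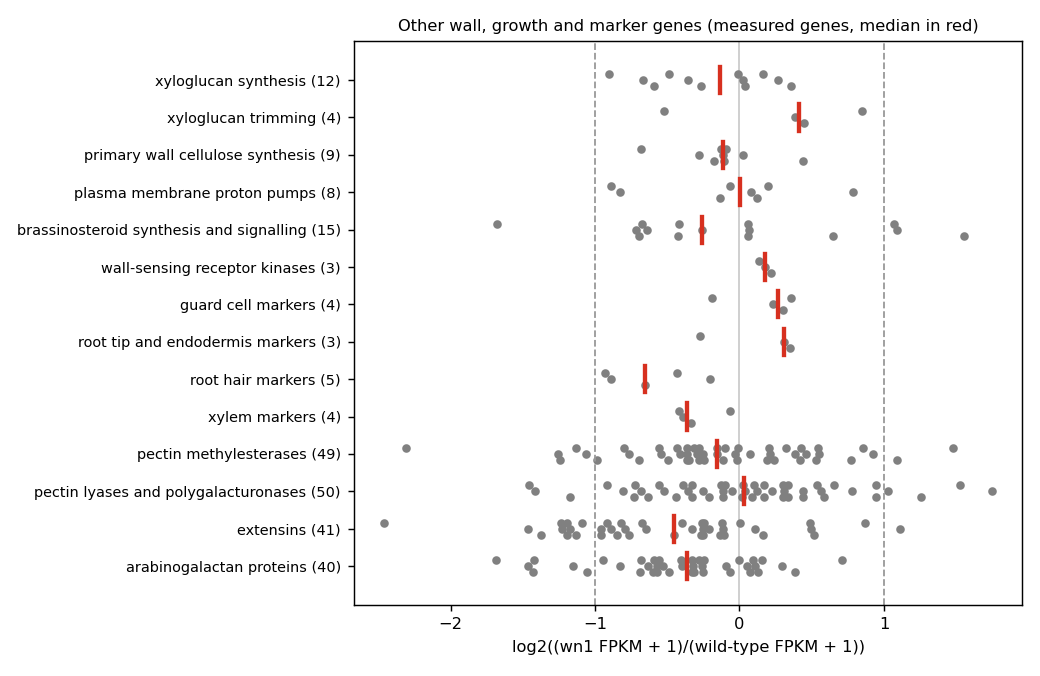
Log2 difference of FPKM + 1 (wn1 over wild type) for the measured genes of other wall, growth and marker lists, 1 point per gene, with the number of genes in brackets, dashed lines at 2-fold and medians in red. Extensins (median -0.45), arabinogalactan proteins (-0.36) and root-hair markers (-0.66) lie to the left of 0, and proton pumps (0.01) and primary wall cellulose synthesis (-0.11) lie near it.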

How the data were processed

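The authors deposited 1 table of FPKM with 1 row per TAIR10 gene. The submitters' processing notes name Bowtie and TAIR10. The read counter, strand setting, versions and filters they used were not given in the sources used here, so reads of overlapping genes on opposite strands may be mixed. Columns were matched to samples by name (WN for wn1, WT for wild type). A further 2 columns of per-sample values were not used. Log2 differences of wn1 against wild type used a pseudocount of 1 on the deposited FPKM (pandas 2.3.3, numpy 2.4.6) and covered the 18788 genes with a mean of at least 1 FPKM. With 1 library per genotype no test was made.

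Members and lists were chosen with earlier results of these data known. Named members were the 10 of highest mean FPKM in each family, those at least 2-fold different and those with a mean of at least 5 FPKM within 0.15 log2 units of that limit. From each other list came its most abundant gene and the 2 of largest absolute difference with a mean of at least 5 FPKM. Other genes named were chosen after their values were seen, and fewer are named than the rule selects.

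Depth was read from the steps between low FPKM values. In 561 single-transcript genes under 0.3 FPKM but above 0 in each library, 88.8% of ratios fell, to a tolerance of 0.5%, on 0.822 multiplied by a quotient of integers from 1 to 6. At a step larger by 3% this was 1.25%. The step gives wn1 1.22 times the depth of wild type. RefSeq transcript lengths of at least 1000 bases gave the absolute estimates, and fold intervals are exact binomial (Clopper-Pearson) at 95%. All 64 members were found in the RefSeq annotation of TAIR10.1, which gave lengths, gene order, coding identity and the windows before gene starts. The FPKM table has no coordinates, so those printed are of TAIR10.1 alone. Motif searches used both strands, and matches may overlap. The steps were tested on simulated data.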

Additional observations from a re-analysis of the deposited data

How the results depend on the processing

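With no replicates, a log2 value was counted as moved when it shifted by more than 1.5-fold. The family medians kept their sign with a pseudocount of 0.1, a mean of at least 5 FPKM, no filter, centring on the median of all genes and rescaling over nuclear protein-coding genes, between -0.42 and -0.03 for expansins and between -0.20 and -0.15 for XTHs. With a pseudocount of 0.1 the count of XTHs at least 2-fold lower was 1 (XTH20) in place of 0. Division of each column by its own sum left 100 genes higher and 6956 lower by 2-fold or more, family medians of -1.32 for expansins and -1.14 for XTHs, no member of either family at least 2-fold higher (0 and 0), and 15 expansins and 14 XTHs at least 2-fold lower. All 25 members named by rule moved under that division, and none under the other alternatives, where EXPA12 had no value at a mean of at least 5 FPKM. At 4-fold, 72 genes were higher and 128 lower, with 0 expansins and 0 XTHs higher and 1 expansin (EXPA16) lower. Leaving out root and root-hair members, an alternative chosen after seeing the data, turned the XTH median to 0.26. All 9 XTHs left out lay below 0, so this turn followed from the choice of group. Depth limits the rare members: at 1 FPKM on 1 kb the estimates stand for 15.7 fragments in wn1 and 12.7 in wild type. No paired analysis was possible because there is 1 library per genotype and no test.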

Other observations

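Genes for pectin remodelling act on the other main matrix polymer of the primary wall. The 49 measured genes described as pectin methylesterases or their inhibitors had a median log2 difference of -0.16, with 2 (4.08%) higher and 5 (10.2%) lower by 2-fold or more, against 3.67% and 3.65% of all measured genes. AT1G23200 had 1.21 FPKM in wn1 and 9.93 FPKM in wild type, and AT5G62350, the most abundant, had 95.7 FPKM in wn1 and 69.4 FPKM in wild type. The 50 measured genes described as pectin lyase-like or polygalacturonase had a median of 0.03, with 4 (8%) higher and 3 (6%) lower by 2-fold or more. This list goes by the words of the descriptions. It also holds the inhibitor genes PGIP1 and PGIP2 and may hold methylesterases, so the 2 lists do not part the enzyme classes cleanly. With so few genes counted, these shares are given as a description. PMR6, a pectate lyase-like gene known from powdery mildew resistance, had 79.4 FPKM in wn1 and 22.9 FPKM in wild type, a log2 difference of 1.75, and AT5G47500 had 46.8 FPKM in wn1 and 15.6 FPKM in wild type. Of the seed markers, the storage protein gene CRA1 had 7.81 FPKM in wn1 and 42.3 FPKM in wild type, and the oil body gene OLEO1 had 4.26 FPKM in wn1 and 14.4 FPKM in wild type.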
